A study of Mus musculus with 12 samples.

Results

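The levels of 36 interferon-stimulated genes, chosen by symbol, were followed in testes of mice that had been injected with lentivirus, a virus-derived vector. Of the 36 genes, 34 had a row among the 20718 genes of the table and all 34 passed the filter on low counts that left 16296 genes to test, while Mx1 and Mx2 were not analysed here. The mice carried the strain label IRC mouse (ICR in the methods of the study), were of the injected generation (F0), and, per the methods of the study, received the virus in the testis as juveniles and were sampled as adults some weeks later. Each of the 4 groups had 3 libraries. In F0_5251KD the virus was a mix for 3 short hairpin RNAs against the long non-coding RNA lncRNA5251, and in F0_3NC it was the negative control of that knockdown vector (LV3). The main methods and the supplement differ in the number of positions that the hairpins target. In F0_5251OV the virus carried the full length of lncRNA5251, and in F0_5NC it was the empty overexpression vector (LV5). All 12 libraries, controls included, therefore came from testes that had received a needle and a lentivirus, and no library of an uninjected testis was analysed here. RNA was taken from whole testis, and the share of cells that took up the vector is not known from these data. In such bulk samples fewer cells of a type and less RNA per cell cannot be told apart. Whether the libraries of a group stem from different mice is not stated in the labels, so a p-value here reflects how far these particular libraries vary, which may be technical. No row of the table is named lncRNA5251, so the knockdown and the overexpression were not checked here.

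Interferons are secreted proteins that warn cells of a virus or another microbe. They bind receptors on the cell surface, the receptors activate kinases of the JAK family and factors of the STAT and IRF families, and these factors switch on interferon-stimulated genes, whose products detect nucleic acid, block the translation or release of a virus, or attack the membrane around a microbe inside the cell. Type I interferons act mainly through a factor complex that includes IRF9 and binds the interferon-stimulated response element (ISRE), and type II interferon, made mostly by T and NK cells, acts mainly through the gamma-activated site (GAS). The testis is a tissue in which immune responses are held down to protect germ cells, and Leydig cells, Sertoli cells and macrophages of the testis can all respond to interferon.

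The libraries were nearly equal in depth, with 15431383 to 16355720 estimated counts each. Levels are given below as CPM, the reads of a gene scaled to the library total, where libraries are compared for 1 gene, and as RPKM, which also divides by transcript length, where genes are compared with each other. The germ cell markers Ddx4, Sycp3, Tnp1, Prm1 and Acrv1 summed to 5190 to 6560 CPM, and the 6 Leydig cell markers to 1380 to 2950 CPM. Over all genes tested, the library F0_3NC_2 was the highest of the 12 for 18.7% of genes and F0_5NC_1 for 16.1%, against 4.17% to 10.8% for each of the other 10 libraries. The epididymis markers, which belong to a neighbouring organ, summed to 96.0 CPM in F0_5NC_2, 93.3 in F0_5NC_3, 65.6 in F0_5251OV_1 and 47.0 in F0_5251OV_2, and to at most 9.83 CPM in each other library. Most of the larger sums was Crisp1, at 93.82, 89.87, 63.62 and 45.16 CPM in the same order. Rnase9 was at 2.05, 3.39, 1.94 and 1.83 CPM in these libraries. Lcn9 was at 0.13 CPM or less in every library, and Lcn5 and Lcn8 had no row.

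The 34 genes were expressed at low to moderate levels. By mean RPKM over the 12 libraries, Dhx58 stood first with 21.2, a level per length above that of Bst2 (9.2), Iigp1 (7.63) and Eif2ak2 (6.34). At the other end were Rsad2 (0.156), Ifi44 (0.193) and Ifit1 (0.272), and 26 of the 34 genes had a mean of at least 1 CPM. The counts behind the lowest genes were small, for example 2 to 22 reads per library for Rsad2, 2 to 33 for Ifi44 and 3 to 20 for Isg15, so that moderate differences in them were not detectable at this depth. Estimated counts were not whole in 1 or more libraries for Ifit1, Ifit3, Oas1a, Oas3, Igtp, Irgm2, Xaf1, Parp9 and Eif2ak2, so reads had been divided between these and other genes, and their split is uncertain.

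Many of the 34 genes lie next to each other in the genome (GRCm38, mm10). With a gap of under 100 kb, 16 of the 36 fell into 7 clusters, 1 of which was Mx1 with Mx2 on chromosome 16. The guanylate-binding protein genes Gbp7, Gbp3 and Gbp2 lie together on chromosome 3 (142530336 to 142638008), Igtp and Irgm2 on chromosome 11 (58199556 to 58222783), Ifit2, Ifit3 and Ifit1 on chromosome 19 (34550550 to 34650009), Oasl2 and Oasl1 on chromosome 5 (114896926 to 114937911), Oas2 and Oas3 on the same chromosome (120730333 to 120777684), and Parp14 and Parp9 on chromosome 16 (35831892 to 35972621). A promoter window of 300 bases, from 250 bases before to 50 bases after the start of the gene, was given by RefSeq (GRCm38.p6) for 26 of the 36 genes. Both strands of each window were searched for a core of the ISRE, written GAAANNGAAA, and a core of the GAS, written TTCNNNGAA. The ISRE core was present in 17 of the 26 genes (65.4%), against 3.99% of all 27025 genes with a window. The GAS core was present in 7 of the 26 (26.9%), against 9.55% of all genes. All 6 GTPase genes with a window held the ISRE core, and Gbp7, Igtp and Irgm2 held the GAS core too. The sensors Ddx58, Ifih1 and Eif2ak2 each held an ISRE core, while none was found in the windows of Tap1, Xaf1, Irf7, Irf9, Trim25, Ifi44, Ifit2, Oasl1 and Oasl2. A match is a description of the letters only, and 1 of the 29 windows (that of Bst2) held cores of both kinds that overlap.

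Promoter windows are shown for the 4 GTPase genes that have one and whose highest library stood farthest above the median of the 12 (5.61-fold for Irgm2 to 11.2-fold for Igtp), and, beside them, for Isg15, which holds more ISRE cores but whose level was not clearly raised in those libraries. Each runs 5′ to 3′ along its gene and the capitals mark the cores. In Gbp2 (chr3:142620413-142620712, plus strand) the ISRE core began 59 bases before the start, in reverse orientation. In Igtp (chr11:58199306-58199605, plus strand) and Irgm2 (chr11:58214727-58215026, plus strand) a GAS core lay next to an ISRE core. These windows shared a run of 61 identical bases, which held neither core. In Irgm1 (chr11:48871371-48871670, minus strand) 2 overlapping ISRE cores began 30 and 24 bases before the start, and in Isg15 (chr4:156200769-156201068, minus strand) 3 overlapping cores began 78, 72 and 66 bases before it.
Gbp2: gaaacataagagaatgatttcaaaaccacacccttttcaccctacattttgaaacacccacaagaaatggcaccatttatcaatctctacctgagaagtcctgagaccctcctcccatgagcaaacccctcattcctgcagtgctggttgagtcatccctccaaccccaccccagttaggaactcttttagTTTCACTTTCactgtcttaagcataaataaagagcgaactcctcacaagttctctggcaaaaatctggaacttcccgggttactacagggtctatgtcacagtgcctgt
Igtp: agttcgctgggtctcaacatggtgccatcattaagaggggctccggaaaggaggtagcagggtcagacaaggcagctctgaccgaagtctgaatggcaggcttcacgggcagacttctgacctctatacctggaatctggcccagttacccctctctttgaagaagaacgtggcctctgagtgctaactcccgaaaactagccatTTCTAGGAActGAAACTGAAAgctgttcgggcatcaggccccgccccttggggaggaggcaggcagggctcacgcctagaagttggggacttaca
Irgm2: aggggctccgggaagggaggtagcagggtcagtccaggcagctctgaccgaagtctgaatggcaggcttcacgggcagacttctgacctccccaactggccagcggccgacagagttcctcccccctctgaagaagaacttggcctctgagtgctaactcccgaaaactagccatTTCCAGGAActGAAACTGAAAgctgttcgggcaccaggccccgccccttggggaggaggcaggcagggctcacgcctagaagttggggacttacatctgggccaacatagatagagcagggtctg
Irgm1: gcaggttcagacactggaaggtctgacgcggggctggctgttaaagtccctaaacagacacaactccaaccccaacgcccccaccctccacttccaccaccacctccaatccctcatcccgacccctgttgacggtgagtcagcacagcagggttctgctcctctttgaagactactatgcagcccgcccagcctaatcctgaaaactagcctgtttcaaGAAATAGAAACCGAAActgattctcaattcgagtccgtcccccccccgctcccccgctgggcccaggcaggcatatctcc
Isg15: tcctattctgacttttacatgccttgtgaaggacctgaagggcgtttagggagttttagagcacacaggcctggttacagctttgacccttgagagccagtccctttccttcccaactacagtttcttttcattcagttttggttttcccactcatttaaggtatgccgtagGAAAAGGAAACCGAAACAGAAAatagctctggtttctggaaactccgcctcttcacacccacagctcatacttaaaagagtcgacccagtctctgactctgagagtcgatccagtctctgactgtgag

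The question of whether single testes carried a raised interferon response was examined first, library by library. In 2 of the 12 libraries, both of control virus, the genes stood farthest above the mean of the other libraries of the same group. In F0_3NC_2, 32 of 34 genes were above the mean log2 level of its group mates, against 50% of all genes tested, and 20 of 34 were more than 2-fold above their mean CPM, against 1.83% of all genes. In F0_5NC_2, 29 of 34 were above the mean log2 level of the other libraries of F0_5NC, against 52.7% of all genes, and 12 of 34 were more than 2-fold above their mean CPM, against 1.28%. Above the mean log2 level of the mates were also 26 of 34 genes in F0_5251OV_1 (49.6% of all genes) and 24 in F0_5251KD_1 (47.7%). The same held for 21 each in F0_5NC_1 (48.0%) and F0_5251OV_3 (52.4%). More than 2-fold above the mean CPM were 5 in F0_5251KD_1 (1.2%), 3 in F0_5251OV_1 (0.933%), 2 in F0_5251OV_3 (1.12%) and 0 in F0_5NC_1 (1.66%). The mates of F0_5NC_1 include F0_5NC_2, which lowers its folds over them, and the level of F0_5NC_1 likewise enters the folds of F0_5NC_2. More than 4-fold above the mean of the mates were 10 genes in F0_3NC_2 (0.374% of all genes), 5 in F0_5NC_2 (0.276%) and 2 in F0_5251KD_1 (0.172%). The median deviation from the mates was 1.08 on the log2 scale in F0_3NC_2 and 0.70 in F0_5NC_2, where the median over all genes was 0.0 and 0.01. The summed level of the 34 genes was 412.3 CPM in F0_3NC_2 and 393.1 CPM in F0_5NC_2, and 154.5 to 228.3 CPM in each of the other 10 libraries.

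**Figure D1:**
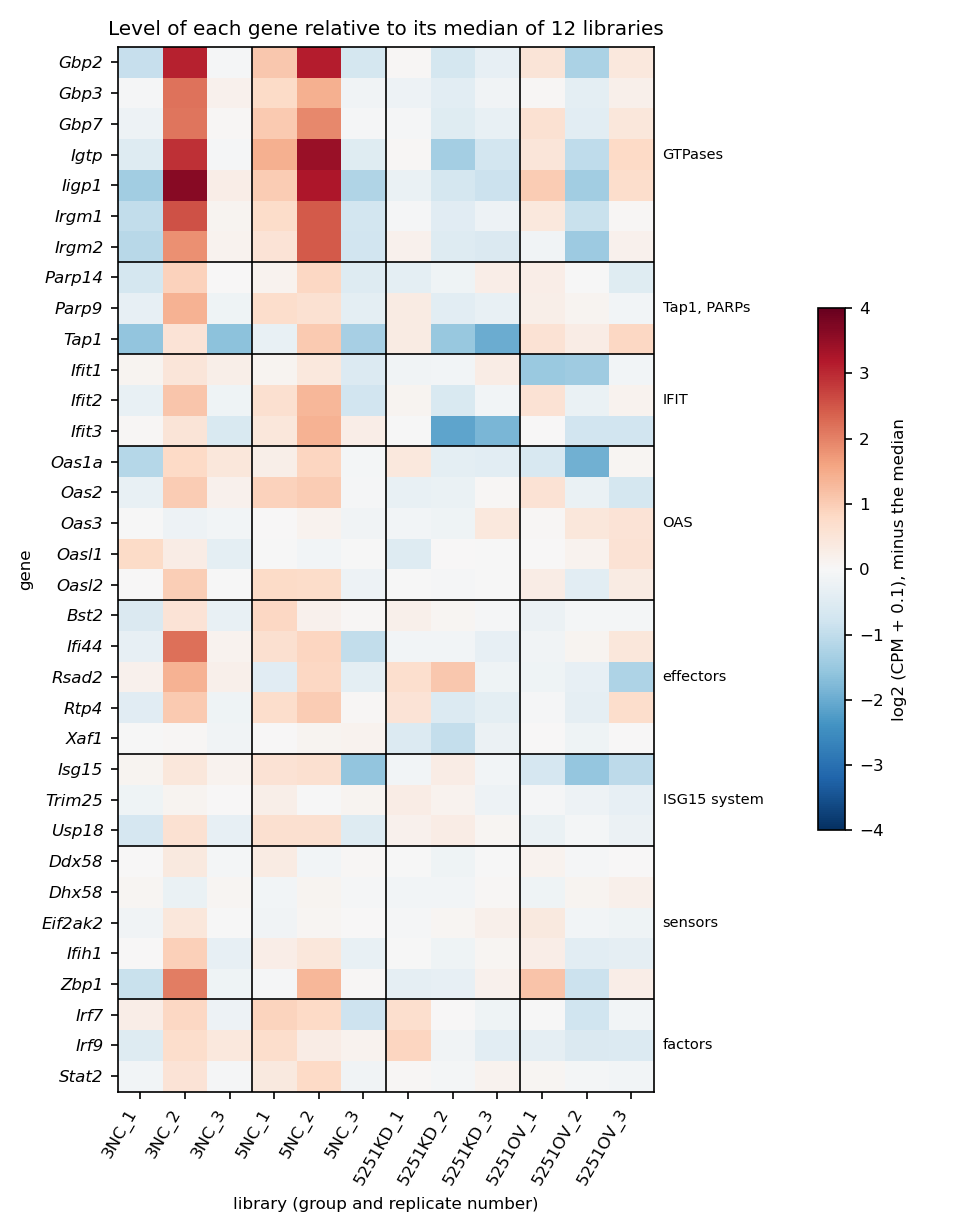
Each cell is the log2 of CPM + 0.1 of 1 gene in 1 library, minus the gene's median over the 12 libraries, with genes grouped by role and libraries by group (the prefix F0_ is left off). The columns of 3NC_2 and 5NC_2 are red for most genes and darkest for GTPase genes such as Iigp1, Igtp and Gbp2, while sensors such as Dhx58 differ little between libraries.

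By the median of a role, the interferon-inducible GTPases stood highest in these libraries. Zbp1, Ifi44 and Tap1 in F0_3NC_2, and Tap1, Rsad2, Zbp1, Ifit2 and Ifit3 in F0_5NC_2, had higher folds than the lowest of them, Gbp3. The GTPases are the guanylate-binding proteins (Gbp2, Gbp3 and Gbp7) and the immunity-related GTPases (Igtp, Irgm1, Irgm2 and Iigp1). Some of these proteins, such as that of Iigp1, act on the membrane around microbes inside the cell, and others restrain them. All 7 were more than 2-fold above the mean of the group mates in both libraries, with a median fold of 7.66 in F0_3NC_2 (4.44 for Gbp3 to 16.2 for Iigp1) and of 5.5 in F0_5NC_2 (2.09 for Gbp3 to 7.65 for Iigp1). Their summed level was 215.1 CPM in F0_3NC_2 and 198.2 CPM in F0_5NC_2, 55.4 CPM in F0_5NC_1, and 14.0 to 42.3 CPM in each of the other 9 libraries.

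Iigp1 (gene ID 60440, chromosome 18, 60373616 to 60392634), which encodes a GTPase that attacks the membrane around parasites, had 47, 1676 and 145 reads in F0_3NC replicates 1, 2 and 3, or 3.03, 101.92 and 9.58 CPM. In F0_5NC it had 274, 1150 and 54 reads, or 16.42, 75.98 and 3.45 CPM. The 3 libraries of F0_5251KD were at 6.74, 4.93 and 4.34 CPM, and those of F0_5251OV at 16.23, 3.0 and 13.18 CPM. The ratio of F0_3NC_2 to its mates was 16.3 (95% counting interval 14.0 to 19.0) and that of F0_5NC_2 to its mates 7.49 (6.62 to 8.49), and these intervals cover counting error only. The levels of F0_3NC and F0_5251KD overlapped, since F0_3NC_1 was below all 3 libraries of F0_5251KD.

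Gbp2 (gene ID 14469, chromosome 3, 142620663 to 142638008), a guanylate-binding protein, was at 1.1, 19.16 and 2.11 CPM in F0_3NC, and at 4.67, 19.89 and 1.28 CPM in F0_5NC. It was at 2.22, 1.3 and 1.72 CPM in F0_5251KD and at 3.13, 0.85 and 2.91 CPM in F0_5251OV. Igtp (gene ID 16145), an immunity-related GTPase, was at 1.8, 20.31 and 2.51 CPM in F0_3NC and at 7.19, 29.47 and 1.85 CPM in F0_5NC. Its levels were 2.73, 0.97 and 1.53 CPM in F0_5251KD, and 3.7, 1.24 and 4.65 CPM in F0_5251OV. In both genes replicate 2 of each control group was the highest of the 12 libraries or next to it, and the remaining control libraries lay among those of the treated groups, apart from F0_5NC_1, which was above them.

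Irgm1 (gene ID 15944) and Irgm2 (gene ID 54396) restrain the other GTPases on the membranes of the cell itself. Irgm1 was at 2.32, 28.1 and 5.02 CPM in F0_3NC, at 7.79, 26.23 and 2.75 CPM in F0_5NC, at 4.51, 3.37 and 4.09 CPM in F0_5251KD, and at 6.33, 2.48 and 4.85 CPM in F0_5251OV. Irgm2 was at 1.87, 15.08 and 4.56 CPM in F0_3NC, at 6.11, 23.32 and 2.37 CPM in F0_5NC, at 4.7, 2.85 and 2.75 CPM in F0_5251KD, and at 3.76, 1.44 and 4.72 CPM in F0_5251OV. Irgm2 was thus higher in F0_5NC_2 than in F0_3NC_2, whereas Gbp3 was lower. The levels of Gbp3 (gene ID 55932, chromosome 3, 142560016 to 142573213) were 2.19, 10.58 and 2.58 CPM in F0_3NC, 3.96, 6.28 and 2.05 CPM in F0_5NC, 1.97, 1.69 and 2.04 CPM in F0_5251KD, and 2.38, 1.7 and 2.65 CPM in F0_5251OV. Gbp7 had 328 reads in F0_3NC_2 and 258 in F0_5NC_2, and 48 to 154 in the other 10 libraries.

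**Figure D2:**
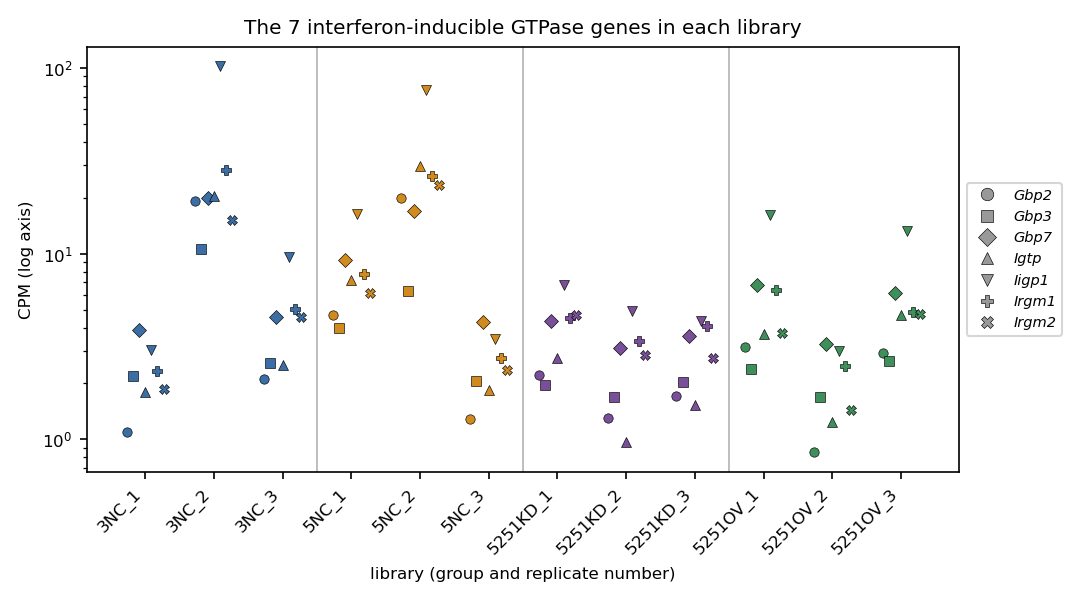
Points are the CPM of each of the 7 GTPase genes in each of the 12 libraries, on a log axis, with 1 marker shape a gene and 1 colour a group (the prefix F0_ is left off). Replicate 2 of 3NC and of 5NC stand above the other libraries, with Iigp1 at 101.92 and 75.98 CPM, and 5NC_1 lies above 5NC_3 for every gene.

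The other roles differed less between these libraries and their mates. The IFIT genes encode proteins that bind viral RNA and stop its translation. Their median fold over the mates was 1.75 in F0_3NC_2 and 2.14 in F0_5NC_2. Ifit2 was at 2.37 CPM in F0_3NC_2 and 0.84 and 0.92 CPM in its mates, and at 2.78 CPM in F0_5NC_2 and 1.68 and 0.58 CPM in its mates. Ifit3 (gene ID 15959), for which reads are shared with a near-identical copy, was at 1.22, 1.7 and 0.73 CPM in F0_3NC, at 1.62, 3.24 and 1.41 CPM in F0_5NC, at 1.14, 0.19 and 0.26 CPM in F0_5251KD, and at 1.19, 0.65 and 0.65 CPM in F0_5251OV. The highest value was in F0_5NC_2, and F0_5251KD_2 and F0_5251KD_3 held only 3 and 4 reads.

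The OAS genes encode enzymes that sense double-stranded RNA and switch on an RNase, and relatives of them. Their median fold was 2.01 in F0_3NC_2 and 1.29 in F0_5NC_2. Oasl2 (gene ID 23962), the OAS gene with the highest mean RPKM, was at 5.35, 10.7 and 5.28 CPM in F0_3NC, at 9.23, 8.99 and 4.67 CPM in F0_5NC, at 5.34, 5.19 and 5.3 CPM in F0_5251KD, and at 6.58, 3.98 and 6.79 CPM in F0_5251OV. Oasl1 (gene ID 231655), which holds back the translation of Irf7, had its highest level in F0_3NC_1, with 2.13, 1.52 and 0.92 CPM in F0_3NC, 1.2, 1.12 and 1.22 CPM in F0_5NC, 0.83, 1.23 and 1.21 CPM in F0_5251KD, and 1.25, 1.37 and 1.87 CPM in F0_5251OV. Oas3 had folds of 0.897 and 1.17 in the 2 libraries.

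Among the other antiviral effectors, Ifi44 (gene ID 99899), an interferon-induced protein, had 4, 33 and 6 reads in F0_3NC, 10, 11 and 2 in F0_5NC, 5, 5 and 4 in F0_5251KD, and 5, 6 and 8 in F0_5251OV. Only F0_3NC_2 stood clearly apart for it, with a fold of 6.14 over its mates. Bst2 (gene ID 69550), or tetherin, which holds budding virus on the cell surface, followed another order. It was at 3.61, 8.03 and 4.43 CPM in F0_3NC and at 9.77, 6.14 and 5.69 CPM in F0_5NC, with its highest level in F0_5NC_1 and not in F0_5NC_2. In F0_5251KD it was at 6.35, 5.77 and 5.24 CPM and in F0_5251OV at 4.58, 5.22 and 5.17 CPM. Xaf1 (gene ID 327959), a factor that promotes cell death, had nearly equal levels in the 6 control libraries, from 3.83 to 4.73 CPM.

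The genes of the ISG15 system stood less far from their mates, with median folds of 1.29 in F0_3NC_2 and 1.42 in F0_5NC_2. Isg15 (gene ID 100038882), a ubiquitin-like modifier, was at 0.84, 1.09 and 0.86 CPM in F0_3NC and at 1.2, 1.26 and 0.19 CPM in F0_5NC, and its ratio to the mates of 1.29 in F0_3NC_2 had a counting interval of 0.667 to 2.45, which includes 1. In F0_5251KD it was at 0.7, 0.97 and 0.7 CPM, within the range of the controls. Usp18, the protease that removes ISG15 from proteins, had folds of 2.33 and 1.42. Trim25 (gene ID 217069), a ligase that activates the sensor RIG-I, had folds of 1.13 and 0.873. Its levels were 12.63, 15.2 and 14.34 CPM in F0_3NC, 16.72, 13.94 and 15.22 CPM in F0_5NC, 17.41, 15.5 and 12.39 CPM in F0_5251KD, and 13.73, 12.14 and 11.18 CPM in F0_5251OV, so that the libraries of F0_5251OV were all below those of F0_5NC.

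Of the sensors of nucleic acid, Zbp1, which detects Z-form nucleic acid and can trigger cell death, stood highest with folds of 6.77 in F0_3NC_2 and 2.72 in F0_5NC_2. Ifih1 (MDA5) had folds of 2.18 and 1.37, and Ddx58 (RIG-I) of 1.35 and 0.806. Dhx58 (gene ID 80861, chromosome 11, 100694884 to 100704271), or LGP2, a regulator of both, had the highest level per length and one of the flattest profiles, at 17.82 to 23.88 RPKM. In CPM it was at 51.1, 40.2 and 51.53 in F0_3NC, at 45.43, 52.86 and 46.63 in F0_5NC, at 44.54, 45.32 and 50.52 in F0_5251KD, and at 43.25, 52.47 and 56.41 in F0_5251OV. Its lowest value of the 12 was in F0_3NC_2, the library in which 15 of the other genes had their highest.

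The factors that carry the signal differed moderately. Irf7, the factor that amplifies type I interferon, had folds over the mates of 1.74 in F0_3NC_2 and 1.47 in F0_5NC_2, and Stat2 of 1.54 and 1.55. Irf9 (chromosome 14, 55603985 to 55610030, gene ID 16391), the DNA-binding part of the complex that binds the ISRE, was at 4.64, 10.89 and 9.05 CPM in F0_3NC, at 10.97, 8.13 and 7.29 CPM in F0_5NC, at 12.07, 6.09 and 4.98 CPM in F0_5251KD, and at 5.2, 4.44 and 4.52 CPM in F0_5251OV. Its highest level was in F0_5251KD_1, and the 3 libraries of F0_5251OV were all below those of F0_5NC.

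Tap1 (gene ID 21354, chromosome 17, 34187556 to 34197225), which carries peptides to MHC class I molecules, was high in the same control libraries but also elsewhere. It was at 2.45, 10.89 and 2.31 CPM in F0_3NC, at 5.99, 15.59 and 2.94 CPM in F0_5NC, at 9.4, 2.53 and 1.79 CPM in F0_5251KD, and at 11.09, 9.27 and 13.25 CPM in F0_5251OV. F0_5251KD_1 and all 3 libraries of F0_5251OV were thus near the level of F0_3NC_2, although the GTPase genes summed to 215.1 CPM in F0_3NC_2 and to 14.0 to 42.3 CPM in these 4 libraries. Parp9 and Parp14, ADP-ribosyltransferases that enhance interferon signalling, had folds of 3.18 and 2.36 in F0_3NC_2 and of 1.28 and 2.0 in F0_5NC_2.

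**Figure D3:**
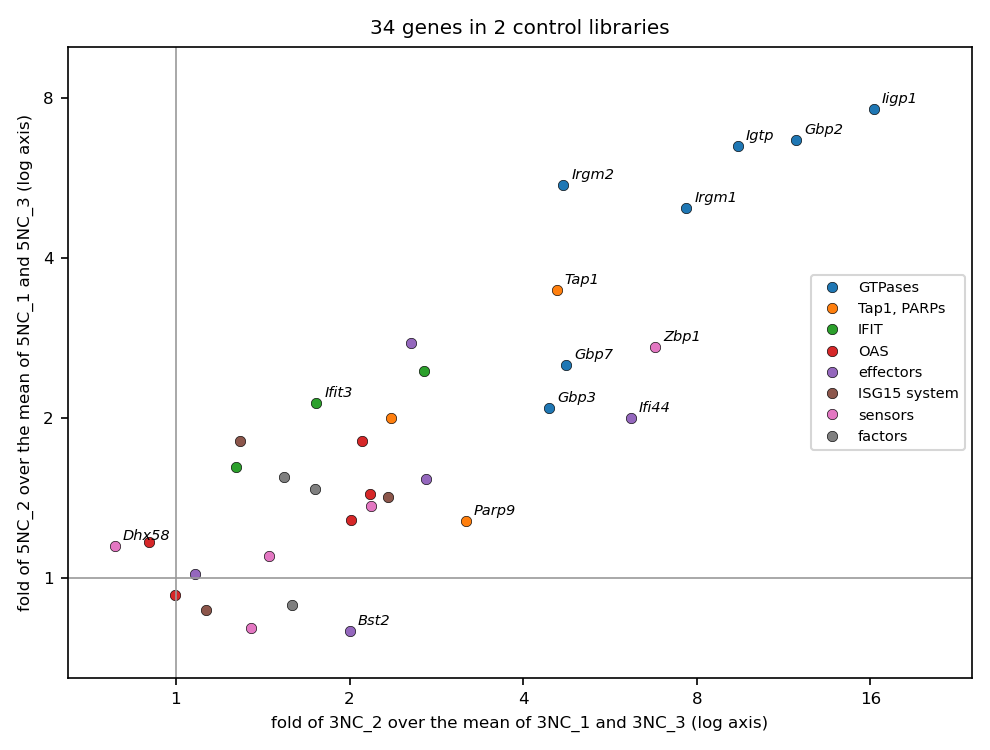
Each point is 1 of the 34 genes, with its fold in 3NC_2 over the mean CPM of the other 3NC libraries on the horizontal axis and its fold in 5NC_2 over the mean of the other 5NC libraries on the vertical axis (both log axes, the prefix F0_ left off, grey lines at 1). The GTPase genes lie at the upper right, led by Iigp1 at 16.2 and 7.65, while Dhx58 is at 0.783 and 1.15 and Bst2 at 2.0 and 0.795.

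A further control library, F0_5NC_1, was in between. Its median over the 34 genes was 0.56 on the log2 scale above the median of the 12 libraries, against 0.86 in F0_3NC_2 and 0.79 in F0_5NC_2, and it was the highest library for Irf7 and Bst2 and, level with F0_5NC_2 at 1.26 CPM, for Usp18. Its GTPase genes had a median fold of 2.01 over the median of the 12 libraries. In this library the markers of several other cell types were high as well, with 156 CPM for the 9 macrophage markers, 214 for the 6 Sertoli cell markers, 6.41 for the 6 dendritic cell markers and 2920 for the Leydig cell markers. Their part in the result was not tested. Among the treated libraries, the 34 genes had medians from -0.34 (F0_5251OV_2) to 0.05 (F0_5251OV_1) on the same scale.

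Markers of immune cells were then set beside the raised genes. In F0_3NC_2 none of the 9 macrophage markers was more than 2-fold above the mates, and their sum was 128 CPM, above both mates, of which F0_3NC_1 had 94.6. In F0_5NC_2 none was either, and the sum was 114 CPM against 108 and 156. The 8 T and NK cell markers summed to 6.87 CPM in F0_3NC_2, the lowest of its group (10.6 and 10.8 in the mates), and to 11.1 CPM in F0_5NC_2 (8.32 and 9.05). Most of each sum was Cd3d, at 7.99 and 8.59 CPM in the mates of F0_3NC_2, so the sums mainly followed this gene. Of the defining T cell markers, Cd3d was at 4.32 and 7.73 CPM in these 2 libraries, Cd3e at 0.12 and 0.26 CPM and Cd3g at 0.36 and 0.53 CPM, and Nkg7 of NK and cytotoxic T cells was at 0.12 and 0.07 CPM. Above 2-fold were Gzma (0.06 CPM) and Gzmb (0.36 CPM) in F0_3NC_2 and Cd8a (0.86 CPM) and Gzmb (0.13 CPM) in F0_5NC_2. These folds rest on few reads. The 6 dendritic cell markers summed to 3.53 and 3.83 CPM, the lowest of their groups. The 5 neutrophil markers summed to 1.32 CPM or less in all 12 libraries. The 6 B and plasma cell markers summed to 8.03 CPM in F0_3NC_2 (3.35 and 9.25 in the mates) and 3.5 CPM in F0_5NC_2 (8.76 and 11.6). Of these 6, Cd79a and Ms4a1, at only 0.12 and 0.67 CPM, were more than 2-fold above the mates in F0_3NC_2 and 0 were in F0_5NC_2. The epididymis markers were high in F0_5NC_2 and nearly as high in F0_5NC_3, where the GTPase genes summed to 18 CPM, and they were at 1.22 CPM in F0_3NC_2.

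**Figure D4:**
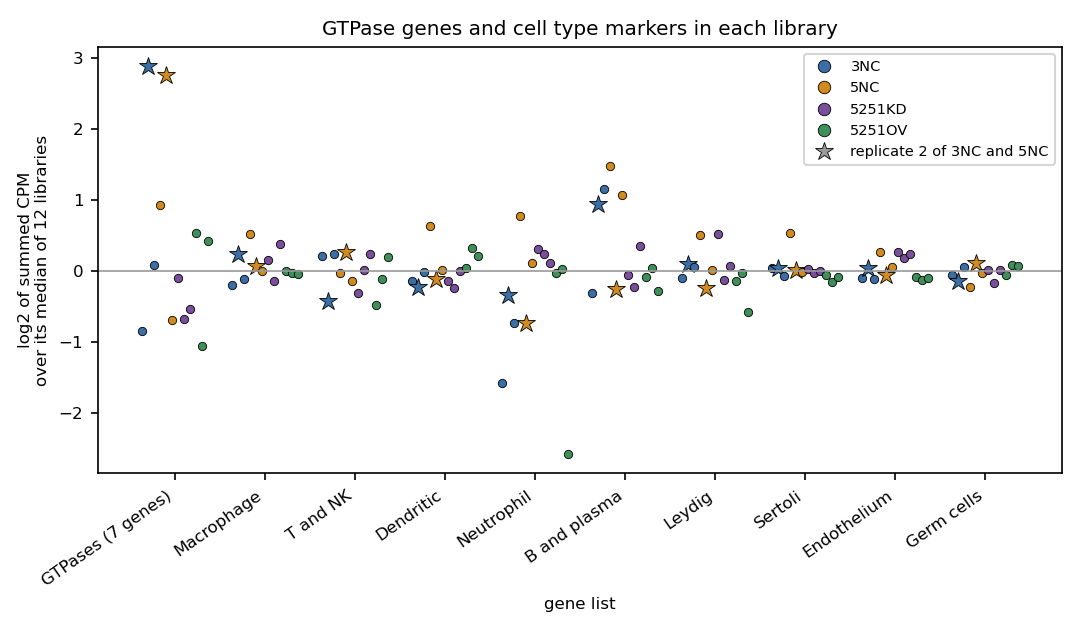
Each point is 1 library, and its height is the log2 of the summed CPM of a gene list over the median of that sum in the 12 libraries, with stars for replicate 2 of 3NC and 5NC (the prefix F0_ is left off). The GTPase sum of the starred libraries is 2.89 and 2.77 above the median, while their sums for macrophage and dendritic cell markers lie within the spread of the other libraries. The T and NK cell sum of 5NC_2 is the highest at 11.1 CPM, next to 10.9 in F0_5251KD_3, and most of each such sum is Cd3d.

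Other genes of the pathway were taken from lists of 115 symbols, of which 110 had a row and 95 were tested. Of the 11 interferon ligands, 8 had a row and none passed the filter. Ifng, the type II interferon, had at most 1 read in any library, in F0_3NC_2 and F0_5251OV_1. The highest count of any ligand was 6 reads, so ligand levels were too low to compare between libraries at this depth. The 9 receptors and kinases were tested, and 1 of them, Ifnlr1, was more than 2-fold above its mates in F0_3NC_2 and 0 in F0_5NC_2, with median folds of 1.22 and 0.821. Among the factors, Irf1 was more than 2-fold above the mates in both libraries, and Irf8 in F0_5NC_2. Irf1, an interferon-induced transcription factor, was at 3.48, 15.26 and 6.67 CPM in F0_3NC and at 8.87, 21.67 and 4.16 CPM in F0_5NC. Of the 62 further interferon-stimulated genes tested, 25 were more than 2-fold above the mates in F0_3NC_2 (1.83% of all genes) and 14 in F0_5NC_2 (1.28%). These included Gbp4, Gbp5, Gbp6, Gbp8, Gbp9, Ifi47, Tgtp1, Tgtp2, Psmb9 and the chemokine gene Cxcl9 in both. In F0_5NC_1 the count was 0 of 62 (1.66% of all genes), but its mates include the raised F0_5NC_2. F0_5NC_1 was the highest of the 12 libraries for 11 of the 62, against 16.1% of all genes. Among treated libraries the count above 2-fold was 4 in F0_5251KD_1 (1.2%). It was 2 each in F0_5251KD_3 (0.865%) and F0_5251OV_3 (1.12%).

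Among the 10 genes outside the list whose log2 CPM followed the mean of the 34 genes most closely over the 12 libraries were Ifi47 (Pearson's r 0.97), Gbp2b (0.97), Irf1 (0.97), Gbp9 (0.96), Tgtp2 (0.94), Gbp10 (0.94), Gbp5 (0.93), Samhd1 (0.93) and Cd74 (0.93). The 12 points include 2 libraries far above the rest, and the values are a description without a test. Cd74, the invariant chain of MHC class II, was at 11.47, 50.9 and 13.01 CPM in F0_3NC and at 31.94, 29.34 and 12.41 CPM in F0_5NC, so it was as high in F0_5NC_1 as in F0_5NC_2.

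Whether the knockdown of lncRNA5251 altered these genes was asked in F0_5251KD vs F0_3NC. The 34 genes were lower in F0_5251KD in 30 of 34 cases, with a median log2 fold change of -0.38 (all genes tested -0.004), and the GTPase genes were lowest with a median of -1.57. None of the 34 passed edgeR's quasi-likelihood test at an adjusted p under 0.05, where 0.0245% of all genes did, and none passed with DESeq2 (0.123%) or limma. At an unadjusted p under 0.05 there were 5 genes, all lower, against 4.74% of all genes. The groups did not overlap for 2 genes, Xaf1 and Gbp3, against 11.8% of all genes, a share above that of the 34. A test on summed reads (the pooled-count test), modelled on the method the study names, ignores how libraries of a group vary. It called 8 of them lower (0.716% of all genes), namely the 7 GTPase genes and Ifi44.

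Iigp1 had a log2 fold change of -2.84 (SE 1.17, 95% interval -5.36 to -0.32, unadjusted p 0.0299, adjusted p 0.897 by edgeR), from 38.2 ± 55.3 CPM in F0_3NC to 5.34 ± 1.25 CPM in F0_5251KD (SD, n = 3). The SD of F0_3NC is larger than its mean. Gbp3 had -1.43 (SE 0.542, unadjusted p 0.0199), Gbp7 -1.37 (SE 0.597, p 0.0385) and Igtp -2.24 (SE 1.029, p 0.0483), each with an adjusted p of 0.897. These values rested on 1 library. Without F0_3NC_2, the log2 fold change of Iigp1 was -0.23 (SE 1.02), that of Gbp3 -0.32, of Gbp7 -0.19 and of Igtp -0.29, the GTPase median was -0.19 (3 of 7 higher), and the median of the 34 genes was 0.12, with 20 higher and 14 lower. At an unadjusted p under 0.05 there were then 1 higher and 1 lower, against 3.08% of all genes. Xaf1 differed from this pattern. It was at 4.25, 4.38 and 3.83 CPM in F0_3NC and at 2.86, 2.14 and 3.64 CPM in F0_5251KD, with a log2 fold change of -0.53 (SE 0.191, unadjusted p 0.0156, adjusted p 0.897), and of -0.48 without F0_3NC_2. Bst2 had a log2 fold change of 0.11 (SE 0.271) with all libraries and of 0.53 (SE 0.24, unadjusted p 0.0444, adjusted p 1.0) without F0_3NC_2.

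Whether overexpression altered them was asked in F0_5251OV vs F0_5NC. In this comparison 29 of 34 genes were lower in F0_5251OV, with a median log2 fold change of -0.51 (all genes tested -0.002), and the GTPase genes had a median of -1.56. By edgeR 0 of 34 passed (0.0% of all genes), and by DESeq2 0 of 34 (0.172%) and by limma 0. At an unadjusted p under 0.05 there were 5 genes, all lower, against 8.77% of all genes. The groups did not overlap for 5 genes, against 13.9%. Of these Irf9, Ifit3, Bst2 and Trim25 were lower and Oasl1 higher in F0_5251OV, where Oasl1 had a log2 fold change of 0.34 (SE 0.316). The pooled-count test called 6 lower, Gbp2, Igtp, Irgm1, Irgm2, Iigp1 and Ifit3 (0.955% of all genes).

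Irf9 averaged 4.72 ± 0.419 CPM with overexpression and 8.8 ± 1.93 CPM in its control (SD, n = 3), for which edgeR gave a log2 fold change of -0.9 (SE 0.337, 95% interval -1.62 to -0.17) with an unadjusted p of 0.019 and an adjusted p of 0.552. Isg15 was at 0.44, 0.2 and 0.32 CPM in F0_5251OV, or 7, 3 and 5 reads, with a log2 fold change of -1.44 (SE 0.558, unadjusted p 0.0224). Its groups overlapped, since F0_5NC_3 had 3 reads. Ifit3 had -1.31 (SE 0.527, p 0.0265), Ifit1 -1.09 (SE 0.48, p 0.0403) and Trim25 -0.31 (SE 0.139, p 0.0439), with adjusted p from 0.552 to 0.562. Without F0_5NC_2, the median of the 34 genes was -0.26, with 24 lower, and that of the GTPase genes -0.38. Irf9 was then at -0.97 (SE 0.385, unadjusted p 0.0267) and Trim25 at -0.39 (SE 0.158, p 0.0308), while Isg15 was at -1.13 (SE 0.624, p 0.0932), Ifit1 at -0.85 (SE 0.538, p 0.139), Ifit3 at -0.87 (SE 0.565, p 0.148) and Iigp1, at -1.56 (SE 1.092) with all libraries, at 0.1 (SE 1.122). Without F0_5NC_1, Irf9 was at -0.71 (SE 0.381, unadjusted p 0.089) and Trim25 at -0.24 (SE 0.157, p 0.152). Tap1 had a log2 fold change of 0.46 (SE 0.656), and of 1.3 (SE 0.705, unadjusted p 0.0889) without F0_5NC_2. Since all groups share an estimate of spread, leaving out F0_3NC_2 also moved the count at an unadjusted p under 0.05. It was then 13 of 34 genes, all lower (10.5% of all genes), 6 of the 7 GTPase genes among them, and 0 passed after adjustment. The GTPase median stayed at -1.56. F0_3NC_2 was picked by its level of these same genes, so the smaller p-values are no test of them. Without both control libraries numbered 2, the GTPase median was -0.38. By edgeR 1 of 34 genes was then higher and 3 lower at an unadjusted p under 0.05 (13.4% of all genes), with 0 of the GTPase genes.

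**Figure D5:**
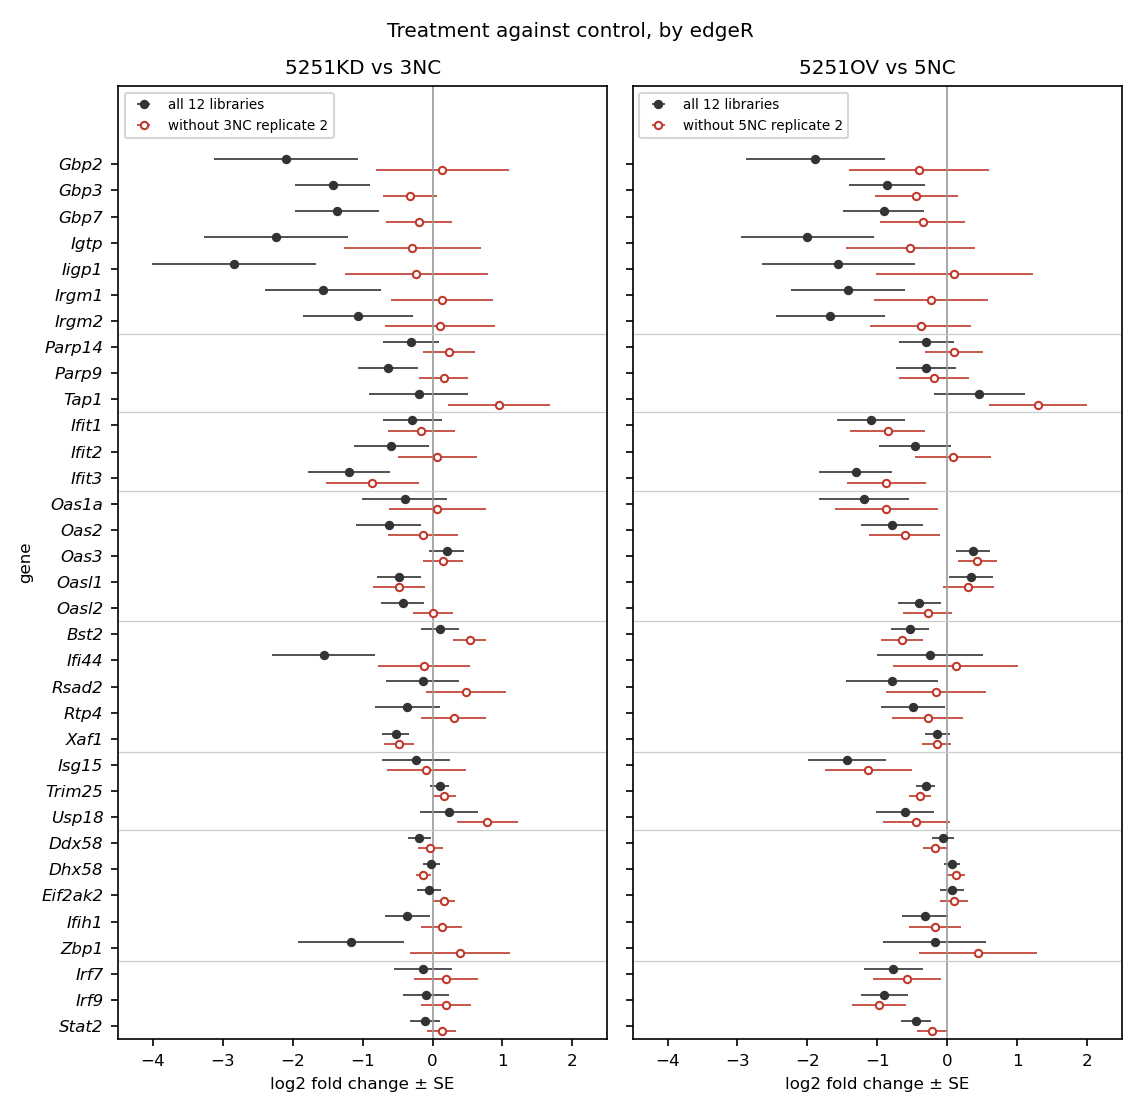
Points are log2 fold changes of the 34 genes by edgeR and bars are 1 SE on each side, for F0_5251KD vs F0_3NC (left) and F0_5251OV vs F0_5NC (right). Filled points use all 12 libraries, and open points leave out replicate 2 of the control group, where the GTPase medians move from -1.57 to -0.19 and from -1.56 to -0.38.

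The control groups were compared with each other in F0_3NC vs F0_5NC, which differ in the vector and each hold a raised library. Of the 34 genes, 12 were higher and 22 lower in F0_3NC, with a median log2 fold change of -0.1 (all genes tested 0.0). By edgeR 0 of 34 passed, against 0.331% of all genes, and 0 by DESeq2 (0.847%) and by the pooled-count test (1.53%). No gene had an unadjusted p under 0.05 (11.9% of all genes), and the groups overlapped for all 34, where 17.0% of all genes did not overlap. Leaving out F0_3NC_2 gave a median of -0.59 with 11 genes lower at an unadjusted p under 0.05 (7.42% of all genes). Leaving out F0_5NC_2 gave a median of 0.23. Each of these settings drops a library picked for its high level of these same genes and keeps the raised library of the other group. The 11 genes are therefore no test of the vectors. Without both libraries the median was -0.37, with 1 gene lower at an unadjusted p under 0.05 by edgeR (10.3% of all genes). Since these controls serve the other comparisons too, the results are not independent of them. Among the pathway lists, Socs3, an inhibitor of JAK signalling, was the only gene called in any comparison. It was at 7.54, 14.41 and 10.9 CPM in F0_3NC and at 2.04, 1.45 and 1.28 CPM in F0_5NC, and edgeR gave it a log2 fold change of 2.77 (SE 0.28) with an adjusted p of 0.000313. Socs3 was thus high in F0_3NC_1 and F0_3NC_3 as well, where the GTPase genes were low, and it was at 3.83 to 6.74 CPM in F0_5251KD and 1.1 to 1.13 CPM in F0_5251OV.

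The effects of knockdown and overexpression were compared by the difference of their log2 fold changes. By edgeR 0 of 34 genes passed (0.0% of all genes) and by DESeq2 0 (0.215%), and 0 of 34 had an unadjusted p under 0.05, against 11.3% of all genes. The median difference was -0.07, with 14 genes above 0 and 20 below. The lowest was Ifi44 at -1.32 (SE 1.07) and the highest Isg15 at 1.21 (SE 0.743).

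In the pathway lists, 0 of 95 genes passed in F0_5251KD vs F0_3NC, with 1 higher and 8 lower at an unadjusted p under 0.05, against 4.74% of all genes. In F0_5251OV vs F0_5NC 0 passed, with 0 higher and 15 lower, against 8.77% of all genes. The smallest p there was that of Lgals3bp, a secreted binding protein of galectins, with means of 11.6 ± 1.01 CPM under overexpression and 19.6 ± 3.14 CPM in the control (SD, n = 3). For it edgeR gave a log2 fold change of -0.76 (SE 0.137), an unadjusted p of 8.7e-05 and an adjusted p of 0.269. Its levels of 22.71, 19.56 and 16.44 CPM in F0_5NC were all above the 3 levels of F0_5251OV, and they did not follow the raised libraries. Mavs, the adaptor of RIG-I and MDA5, was at 10.1 ± 0.808 and 14.5 ± 3.11 CPM, a log2 fold change of -0.53 (SE 0.158, unadjusted p 0.0053, adjusted p 0.52), and its highest library was F0_5NC_1 with 17.98 CPM. Of the receptors and kinases, none had an unadjusted p under 0.05 in any comparison.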

How the data were processed

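RNA of whole mouse testis was measured in 12 libraries, grouped by their titles. The authors aligned reads with SOAPaligner 2.20 (mm10 per the labels) and deposited 1 table with an expected count and an RPKM value for each gene and library. The counting tool is not named in the labels or methods. Since the plan of tests called the second unit FPKM, RPKM took its place. Of the expected counts deposited by the authors, 11.96% were not whole (tolerance 1e-06), and all were rounded. A further 18 columns fit no sample and went unused. The counting's use of strand is not stated.

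All 12 libraries entered a single quasi-likelihood fit in edgeR 4.0.16 (R 4.3.3) with TMM factors of 0.97 to 1.078, the filterByExpr filter and 8 residual degrees of freedom. Tests were two-sided, with Benjamini-Hochberg adjustment over 16296 genes at 0.05. Each SE is the fitted change over the root of its F value. Intervals of read ratios are exact binomial at 95%. CPM used TMM-scaled totals. Other settings were DESeq2 1.42.0, upper-quartile scaling, looser and stricter filters, limma 3.58.1 on log2(RPKM + 1) or log2(RPKM + 0.1), the compared groups only, a replicate block, each library left out, and a pooled-count test after DEGseq (adjusted p at most 0.001, absolute log2 ratio at least 1). Scripts were tested on simulated counts. The genes and lists were chosen with earlier results of these data known. Values in every library are given for genes with the 3 smallest p of a comparison, the highest mean RPKM of a role, or the 6 largest ratios of highest library to median. Other genes named with values, such as Ifit2, Zbp1 and Mavs, were picked after their values were seen. Without both control libraries numbered 2 was a setting chosen after seeing the data. The result for 1 gene of the pathway lists is not reported here.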

Additional observations from a re-analysis of the deposited data

How the results depend on the processing

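No setting but the pooled-count test called any of the 34 genes. That test called 8 in F0_5251KD vs F0_3NC and 6 in F0_5251OV vs F0_5NC. Over all genes, F0_5251KD vs F0_3NC had 4 calls by edgeR, 20 by DESeq2, 2 and 0 by limma on log2(RPKM + 1) and log2(RPKM + 0.1), 143 by the pooled-count test, and 0 to 3 with 1 library left out. F0_5251OV vs F0_5NC had 0, with 28 by DESeq2, 3 without a filter, 3 with the compared groups only, 191 by the pooled-count test, 0 to 1 with 1 library left out and 3 without both control libraries numbered 2. F0_3NC vs F0_5NC had 54, with 138 by DESeq2, 307 by the pooled-count test, 30 to 52 with 1 library left out and 33 without both. The difference of effects had 0, with 35 by DESeq2, 1 by limma on log2(RPKM + 1) and 0 to 1 with 1 library left out. The cause of these shifts was not tested.

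The median of the 34 genes in F0_5251KD vs F0_3NC ranged from -0.57 to 0.12 with 1 library left out, with 0.12 without F0_3NC_2 and 0.119 without both. In F0_3NC vs F0_5NC it ranged from -0.587 to 0.234, above 0 at 0.074 without F0_3NC_1, 0.067 without F0_3NC_3 and 0.234 without F0_5NC_2. The median difference of effects was 0.098 and 0.143 by limma, -0.201 to 0.58 with 1 library left out, and 0.293 without both. Ifi44 in F0_3NC vs F0_5NC ranged from -0.571 (without F0_3NC_2) to 1.312 with 1 library left out, and was at -0.192 without both. With only those of the 34 genes that averaged 1 CPM or more, the deviation of F0_5251KD_3 was 0.01.

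With the replicate block, F0_5251KD vs F0_3NC had 2 calls over all genes and 0 of the 34. Over all genes tested, same-numbered libraries had correlations of their deviations from -0.242 to 0.161, and libraries of different numbers from -0.284 to 0.415. The labels do not state whether the numbers pair the samples. A shared shift of only some genes could be missed by this measure, so it does not decide the question. Low counts limit Rsad2, Ifi44, Isg15 and Ifit1 most.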
